A study of Mus musculus with 3 samples.

Results

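Nuclear receptors are transcription factors that are switched by small lipid-soluble ligands or, in the orphan receptors, act without a known physiological one. They bind DNA through zinc fingers, many of them as partners of a retinoid X receptor (RXR), and recruit coactivators or corepressors to their target genes. In liver they set hepatocyte identity, bile acid and lipid synthesis, the response to foreign compounds and the response to steroid, thyroid and retinoid hormones. The 34 receptor genes described here were chosen by name, with earlier results of these data known. All 34 were found among the 49492 entries of the deposited tables. Of these, 30 passed a filter of 1 CPM (counts scaled to the size of the library) in at least 1 of the 3 libraries, as did 14585 entries in all, and Nr4a3 passed it through the 12-week library alone. The progesterone receptor Pgr, the vitamin D receptor Vdr, Hnf4g and Esrrb did not pass. The receptors Ppara, Pparg, Nr1h4, Nr0b2, Nr1d1 and Nr1d2 are not members, and their values appear only where a result touches them.

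The data were RNA sequencing libraries of whole liver from CD-1 mice, an outbred strain. Oral zinc oxide nanoparticles (ZnO NPs, a daily 25 mg/kg) were given over 12 weeks (1 library) or 8 weeks (1 library), and control mice received phosphate-buffered saline (PBS, 1 library). The labels do not give age, sex, the number of animals in a library, the time at which the control was taken or the hour of collection. Each group is 1 library, so differences between groups could not be set against any spread between replicates and carry no p-value. The libraries held 13263211 counts at 12 weeks, 14258770 at 8 weeks and 13614979 in the control, so that 3 counts corresponded to 0.227, 0.209 and 0.221 CPM in that order. Ratios below are count ratios scaled to library size, with exact 95% intervals that cover counting error only. A gene was called at a 2-fold difference in CPM + 1, a rule of size rather than a test, and log2 ratios given as a pair without further label are 12 weeks and then 8 weeks against the control.

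The libraries also differed in their cell type markers. Kupffer cell and macrophage markers were called higher for 17 of 18 genes at 12 weeks and for 17 of 18 at 8 weeks, with summed levels of 390 CPM at 12 weeks, 506 CPM at 8 weeks and 122 CPM in the control. Skeletal muscle markers summed to 24 counts at 12 weeks, 2964 at 8 weeks and 33 in the control, with 6, 0 and 8 of the 14 markers at 0 in that order. Of 15 hepatocyte markers 14 were matched in the tables, and these 14 passed the filter; they had medians of 0.26 (log2 ratio) at 12 weeks and 0.24 at 8 weeks against the control, with 0 called in either direction. Liver endothelial markers had medians of 0.30 and 0.38 (1 of 16 called higher at each time), and stellate cell markers 0.39 and 0.27 (0 and 1 of 17 called higher). Lymphocyte markers summed to 23 CPM at 12 weeks, 22.6 CPM at 8 weeks and 11.9 CPM in the control, with 1 of 6 above the filter, the general leukocyte gene Ptprc, called higher at each time. Cholangiocyte markers summed to 53.5 CPM at 12 weeks, 42.4 CPM at 8 weeks and 63.1 CPM in the control, and erythroid markers to 133 CPM at 12 weeks, 155 CPM at 8 weeks and 116 CPM in the control. In whole liver, fewer cells of a type and less RNA per cell cannot be told apart. The part of these markers in the receptor values was not tested, except where a value is given.

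Against the control, receptors passed the 2-fold call in a share near that of all genes. At 12 weeks 1 of the 30 receptors above the filter was called lower and 0 were called higher, against 4.46% of all genes called in either direction, 1.34% lower and 3.11% higher. At 8 weeks the count was again 1 lower and 0 higher, against 6.25% of all genes in either direction, 2.1% lower and 4.15% higher. Nr4a1 was the called receptor at both times. Between 12 and 8 weeks 0 receptors were called, against 2.51% of all genes, 1.28% higher and 1.23% lower at 12 weeks. The median log2 ratio of the receptors was -0.05 at 12 weeks and -0.05 at 8 weeks against the control, where all genes had -0.01 and -0.02, and it was -0.04 between 12 and 8 weeks. Both comparisons use the same control library.

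**Figure D1:**
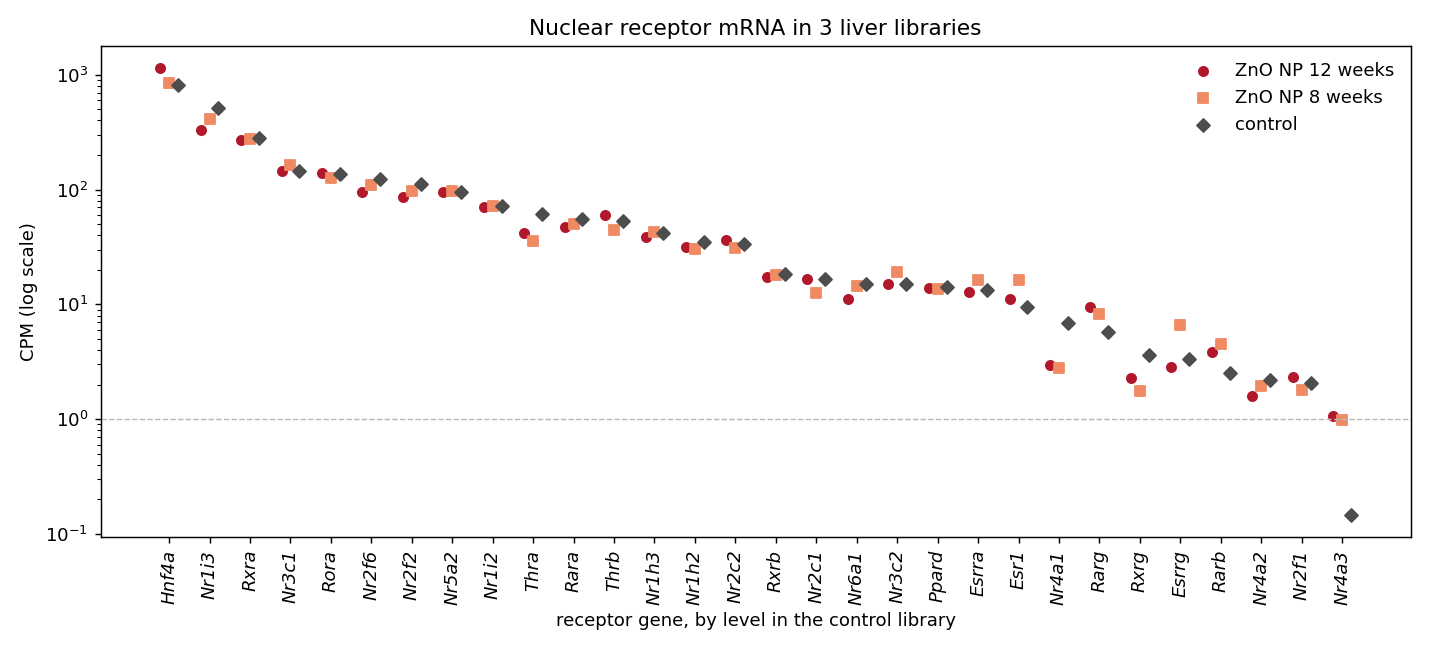
Levels of the 30 receptors above the filter in CPM (log axis), with 1 point per library: ZnO NPs for 12 weeks (circle), 8 weeks (square) and control (diamond). The dashed line marks 1 CPM. Hnf4a stands highest in each library, and Nr4a3 has the widest spread between libraries.

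Counting intervals show smaller differences. At 12 weeks the intervals of 11 receptors lay off 1 (4 above and 7 below), against 43.4% of all genes (21% above and 22.4% below). At 8 weeks those of 19 receptors lay off 1 (9 above and 10 below), against 47.8% of all genes (23.6% above and 24.2% below). Between 12 and 8 weeks the intervals of 15 receptors lay off 1 (6 above and 9 below), against 38.2% of all genes (19% above and 19.2% below). An interval off 1 was thus common among all genes of these libraries, and intervals do not cover differences between animals.

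The order of levels, in CPM per kilobase of exon, was led by the same 6 receptors in every library. Hnf4a, the factor that maintains hepatocyte gene expression, had 236 at 12 weeks, 176 at 8 weeks and 169 in the control. It was followed by Nr1i3 (the constitutive androstane receptor, CAR), Rxra, Nr2f6, Nr1i2 (the pregnane X receptor, PXR) and Nr3c1 (the glucocorticoid receptor). In the control these had 117, 51.8, 41.2, 28.1 and 19.7 CPM per kilobase, and each neighbouring pair was apart beyond counting error. Next came Nr1h3 (16.8) and Nr5a2 (16.1), which were not apart from each other, and then Thra (13.3), Nr2f2 (12.9) and Rara (12.6), which were not apart either. Nr1h2 (10.5) and Rora (10.5) formed a further pair, and all other receptors had 8.12 or less. The lowest receptors above the filter in the control were Nr2f1 (0.434), Esrrg (0.534), Nr4a2 (0.545) and, far below, Nr4a3 (0.0246). Together the 34 receptors took 0.275% of counts at 12 weeks, 0.259% at 8 weeks and 0.27% in the control.

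Some of these levels rest on reads that the files cannot assign to 1 strand. How the counting used strand is not given in the sources used here, and exons of 10 receptors overlap those of another entry. For Nr1i3 (chromosome 1, 171213970 to 171220701, plus strand, GRCm38) the overlap with Tomm40l on the minus strand, which encodes a mitochondrial import channel protein, covers 3304 of 4414 exon bases. Tomm40l had 4151 counts at 12 weeks, 5616 at 8 weeks and 6574 in the control, close to the 4359, 5899 and 7014 of Nr1i3. Nr2f6 shares 54.4% of its exon bases with Ocel1, and Nr2c2 shares 30.7% with Mrps25. Thra shares 263 bases (5.7%) at its 3′ end with Nr1d1, which encodes the clock repressor REV-ERB alpha. Nr2f2 overlaps B130024G19Rik over 7.46%, and the other 5 receptors have overlaps of 3.82% or less. Without these 10 receptors, a choice made after seeing the data, 1 of 20 was called at each time, again Nr4a1.

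**Figure D2:**
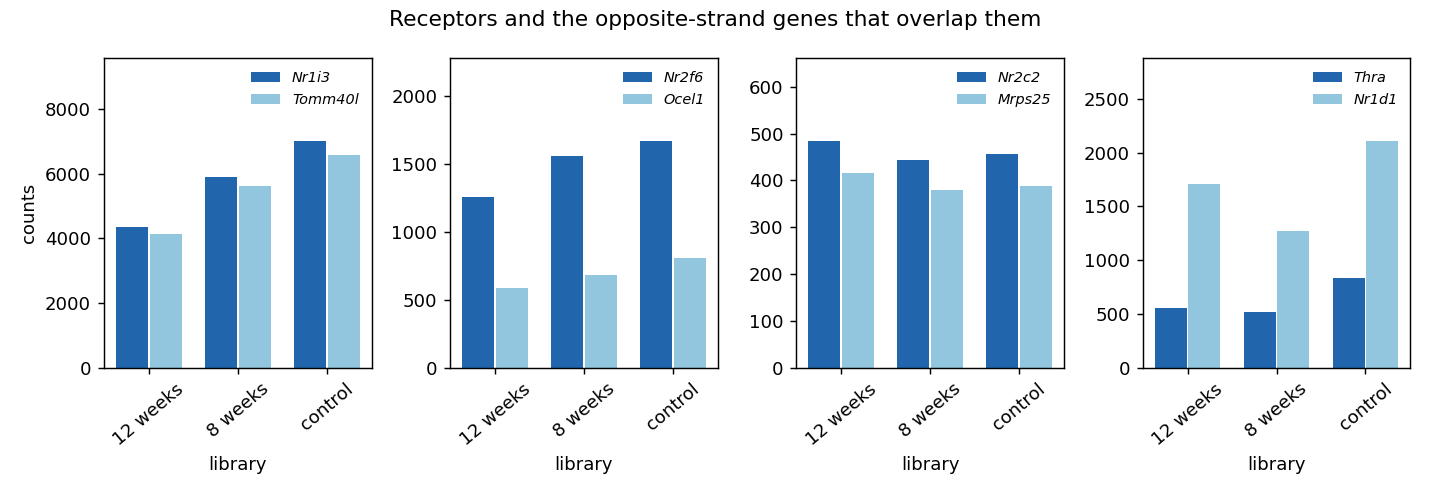
Counts of 4 receptors (dark bars) and of the opposite-strand genes whose exons overlap them (light bars) in the 12-week, 8-week and control libraries; axes start at 0. Nr1i3 and Tomm40l have nearly equal counts that step down together toward 12 weeks, and Thra and Nr1d1 are both lowest at 8 weeks.

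The NR4A receptors, which are immediate early genes induced within minutes to hours by hormones, cAMP and stress, differed from each other. Nr4a1 (Nur77; chromosome 15, 101266846 to 101274792, plus strand) is in liver a mediator of glucagon-driven glucose output. It had 2.94 CPM (39 counts) at 12 weeks, 2.79 CPM (40 counts) at 8 weeks and 6.93 CPM (94 counts) in the control. Both treated libraries were below the control and close to each other. The count ratio to the control was 0.425 at 12 weeks (interval 0.285 to 0.624) and 0.403 at 8 weeks (0.271 to 0.589), with log2 ratios of CPM + 1 of -1.01 and -1.06. Neither interval lay wholly beyond 2-fold, and with a pseudocount of 5 CPM the log2 ratios were -0.59 and -0.61.

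Nr4a3 (Nor1) had 14 counts at 12 weeks, 14 at 8 weeks and 2 in the control, which is 7.17 times the control at 12 weeks (interval 1.65 to 65) and 6.63 times at 8 weeks (1.52 to 60.1). It was not called, because the added 1 CPM keeps its log2 ratios at 0.84 and 0.79. With 0.5 CPM added these became 1.27 and 1.19. Nr4a2 (Nurr1) had 21 counts at 12 weeks, 28 at 8 weeks and 30 in the control, and both of its intervals held 1. The treated libraries thus had fewer Nr4a1 and more Nr4a3 counts than the control, both on few reads.

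The sequences upstream of the NR4A start sites are shown because the motif TGACG, the core of the cAMP response element, recurs in them. The 250 bases before each start are given 5′ to 3′ on the gene's strand, from RefSeq (GRCm38.p6), with TGACG or its reverse complement CGTCA in capitals. Nr4a1 (chr15:101266596-101266845, plus strand) and Nr4a2 (chr2:57124004-57124253, minus strand) hold 4 matches each. The Nr4a3 window (chr4:48045055-48045304, plus strand) also holds 4, but it runs into the gene as the deposited tables place it, from 48045153, and is not printed.
Nr4a1: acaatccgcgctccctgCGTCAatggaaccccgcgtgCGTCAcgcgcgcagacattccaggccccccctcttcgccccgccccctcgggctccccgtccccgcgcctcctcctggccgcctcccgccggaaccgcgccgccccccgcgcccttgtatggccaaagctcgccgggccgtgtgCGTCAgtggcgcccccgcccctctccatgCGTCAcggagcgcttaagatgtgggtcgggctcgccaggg
Nr4a2: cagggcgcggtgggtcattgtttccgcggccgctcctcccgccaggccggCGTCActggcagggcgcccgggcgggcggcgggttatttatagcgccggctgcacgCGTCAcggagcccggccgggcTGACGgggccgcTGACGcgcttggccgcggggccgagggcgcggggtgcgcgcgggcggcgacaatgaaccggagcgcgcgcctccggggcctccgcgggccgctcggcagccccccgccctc

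At least 3 matches on either strand were found in 3 of the 49 upstream windows of the 31 receptors in the table, those of the 3 NR4A genes, and in 0.688% of all 32851 windows. At least 1 match was found in 10 receptor windows (20.4%) and in 17.8% of all windows. The motif, and with it the cut of 3 matches, was chosen after the sequences had been read, so these shares are no test. TGACG lies inside the full element TGACGTCA, and a match is not a site. The full element was found in 0 receptor windows and in 1.55% of all. The E-box CACGTG was found in 3 receptor windows (Nr1i3, Rara and Thrb) and in 6.02% of all, and the nuclear receptor motif AGGTCA in 6 and in 14%.

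Genes of the immediate early list were called in both directions. Of 25 above the filter, 2 were called higher and 3 lower at 12 weeks (median log2 ratio 0.27), and 2 higher and 2 lower at 8 weeks (0.05). The growth factor responsive Egr1 had 22.7 CPM at 12 weeks, 59.3 CPM at 8 weeks and 118 CPM in the control, with a log2 ratio of -2.33 at 12 weeks. Gadd45b, a stress sensor of the growth arrest family, had 8.15 CPM at 12 weeks, 4.19 CPM at 8 weeks and 18.3 CPM in the control. Jun (-0.59 at 12 weeks, -0.83 at 8 weeks) and Fos (-0.30 and -0.24) were not called. The genes named here were all below the control, but 16 of the 25 were above it at 12 weeks and 13 at 8 weeks. The highest log2 ratios of the list were 1.55 and 1.34. Among the genes of all lists, 9 were called lower at both times as Nr4a1 was: Gadd45b, Cdkn1a, Retsat, Cyp8b1, Arntl, Elovl3, Avpr1a, Acot1 and Fgf21.

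Of the RXR partners, Rxra and Rxrb had intervals that held 1 at both times, and the scarce Rxrg was lower at 8 weeks without being called. Rxra, the main RXR of hepatocytes, had 271 CPM at 12 weeks, 277 CPM at 8 weeks and 283 CPM in the control, a ratio of 0.956 at 12 weeks (interval 0.914 to 1) and 0.978 at 8 weeks (0.936 to 1.02). Both intervals held 1. Rxrb had 17.4 CPM at 12 weeks, 18.0 CPM at 8 weeks and 18.3 CPM in the control. Rxrg, found mainly in muscle and nervous tissue, had 30 counts at 12 weeks, 25 at 8 weeks and 49 in the control. Its ratio was 0.627 at 12 weeks (0.384 to 1.01) and 0.483 at 8 weeks (0.286 to 0.798), and it was lowest in the library that holds the skeletal muscle markers.

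Among retinoic acid receptors, which turn on genes when bound by retinoic acid, the abundant Rara had ratios below 1 and the scarce Rarb and Rarg ratios above 1. Rara had 46.8 CPM at 12 weeks, 50.4 CPM at 8 weeks and 55.0 CPM in the control, with a ratio of 0.851 at 12 weeks (0.764 to 0.948) and 0.917 at 8 weeks (0.826 to 1.02). Rarb had 51 counts at 12 weeks, 65 at 8 weeks and 34 in the control (ratios 1.54, interval 0.977 to 2.45, and 1.81, interval 1.18 to 2.83). Rarg had 125 counts at 12 weeks, 118 at 8 weeks and 78 in the control, a ratio of 1.64 at 12 weeks (1.23 to 2.21) and 1.43 at 8 weeks (1.07 to 1.93). The intervals of Rara at 8 weeks and of Rarb at 12 weeks held 1, and 0 of the 3 genes were called. Of 18 retinoid genes above the filter, a list that includes Rarb itself, 0 were called higher and 1 lower at each time. That gene was Retsat, which saturates retinol, with 327 CPM at 12 weeks, 373 CPM at 8 weeks and 1232 CPM in the control (log2 ratios -1.91 and -1.72); 18.4% of its exon bases overlap another entry. Cyp26a1, which degrades retinoic acid and is a textbook target of its receptors, had 5.13 CPM at 12 weeks, 6.28 CPM at 8 weeks and 11.1 CPM in the control (-0.98 and -0.74, not called).

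Both thyroid hormone receptors were below the control at 8 weeks. Thra (chromosome 11, 98740638 to 98769006, plus strand), the receptor form common to most tissues, had 42.1 CPM (558 counts) at 12 weeks, 35.8 CPM (513 counts) at 8 weeks and 61.2 CPM (830 counts) in the control. Both treated libraries were below the control. The ratio was 0.689 at 12 weeks (0.618 to 0.768) and 0.585 at 8 weeks (0.523 to 0.654). Its neighbour Nr1d1 had 1710 counts at 12 weeks, 1271 at 8 weeks and 2106 in the control, with ratios of 0.832 (0.780 to 0.887) and 0.572 (0.533 to 0.613), and the part of its reads in Thra was not tested.

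Thrb, which carries the main thyroid hormone response of hepatocytes, had 59.7 CPM at 12 weeks, 44.7 CPM at 8 weeks and 53.2 CPM in the control. It stood above the control at 12 weeks (ratio 1.12, interval 1.01 to 1.24) and below it at 8 weeks (0.839, interval 0.754 to 0.935). Of 18 thyroid hormone target genes above the filter, 1 was called higher and 2 lower at 12 weeks, and 1 higher and 1 lower at 8 weeks (medians -0.06 and -0.05). Thrsp, a thyroid- and carbohydrate-responsive regulator of lipogenesis, was the one called higher at both times (107 CPM at 12 weeks, 227 CPM at 8 weeks, 7.66 CPM in the control). The deiodinase Dio1, which makes the active hormone, had 3.85 CPM at 12 weeks, 7.05 CPM at 8 weeks and 8.99 CPM in the control (log2 ratio -1.04 at 12 weeks). Of 8 genes of thyroid hormone transport and metabolism, 1 was called higher and 1 lower at 12 weeks, namely the binding globulin Serpina7 (2.13) and Dio1, and 1 higher at 8 weeks, the sulfotransferase Sult1b1 (1.24).

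The vitamin D receptor, whose level in hepatocytes is known to be very low, had 2 counts at 12 weeks, 0 at 8 weeks and 1 in the control, all at or below the 3 counts that limit detection here. Its target Cyp24a1 had 0 counts in every library. Of 5 vitamin D genes above the filter 0 were called, with medians of -0.26 at 12 weeks and 0.38 at 8 weeks. The most abundant were Cyp3a11 (log2 ratios -0.26 and 0.38), which is also on the list of CAR and PXR targets, and the vitamin D binding protein Gc (0.07 and -0.02).

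Nr3c1, Nr3c2 and Esr1 had intervals above 1 at 8 weeks and intervals that held 1 at 12 weeks. Nr3c1, which carries the response to glucocorticoids, had 146 CPM at 12 weeks, 165 CPM at 8 weeks and 146 CPM in the control, a ratio of 0.999 at 12 weeks (0.938 to 1.06) and 1.13 at 8 weeks (1.06 to 1.20). The mineralocorticoid receptor Nr3c2 had 14.9 CPM at 12 weeks, 19.3 CPM at 8 weeks and 15.1 CPM in the control (ratio 1.27 at 8 weeks, interval 1.06 to 1.54). Estrogen receptor alpha, Esr1 (chromosome 10, 4611593 to 5005614, plus strand), had 147 counts at 12 weeks, 234 at 8 weeks and 129 in the control. Its ratio was 1.17 at 12 weeks (0.915 to 1.49), 1.72 at 8 weeks (1.38 to 2.15) and 0.68 between 12 and 8 weeks (0.549 to 0.839). In these 3 genes the 8-week library was the high one, and 0 were called. Pgr had 9 counts at 12 weeks, 3 at 8 weeks and 0 in the control and did not pass the filter; the interval of its 12-week ratio to the control began at 2.02 and has no upper end.

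Among targets of these receptors, genes were called in both directions. Of 24 glucocorticoid targets, 5 were called higher and 1 lower at 12 weeks and 7 higher and 2 lower at 8 weeks. Their medians were 0.47 and 0.40. All genes had shares of 3.11% higher and 1.34% lower at 12 weeks, and 4.15% and 2.1% at 8 weeks. The list was chosen with earlier results of these data known, so these shares are no test. The chaperone Fkbp5 had 136 CPM at 12 weeks, 119 CPM at 8 weeks and 70.6 CPM in the control (0.94 and 0.75, not called), and Tsc22d3, an anti-inflammatory mediator, had 93 CPM at 12 weeks, 186 CPM at 8 weeks and 74.4 CPM in the control (1.31 at 8 weeks). Cdkn1a (-1.33 and -2.76) was called lower at both times and had the lowest log2 ratio of the list at each. Lcn2 (5.5 and 2.65), Mt2 (4.68 and 1.89) and Mt1 (3.62 and 1.26) were called higher at both times. They also answer to inflammation and, for the metallothioneins, to zinc, and Mt2 shares 73.5% of its exon bases with another entry. Of 11 genes of glucocorticoid handling, 1 was called higher at 12 weeks and 2 at 8 weeks, Akr1d1 (1.19 and 2.38), which reduces steroids, and at 8 weeks the cortisol carrier Serpina6 (1.56). Hsd11b1, which regenerates active glucocorticoid, had 0.14 and 0.22. Of 10 estrogen targets above the filter 0 were called (medians 0.09 and 0.15).

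The xenobiotic sensors CAR and PXR, which induce detoxifying enzymes, and the oxysterol sensors LXR were level or lower. Nr1i3 had 329 CPM at 12 weeks, 412 CPM at 8 weeks and 517 CPM in the control, a ratio of 0.637 at 12 weeks (0.613 to 0.661) and 0.796 at 8 weeks (0.769 to 0.825). The 12-week library was the lowest of the 3, and its ratio to the 8-week library was 0.799 (0.769 to 0.831). The overlapping Tomm40l had ratios of 0.647 at 12 weeks and 0.809 at 8 weeks, and reads of the pair cannot be told apart. Nr1i2 had 69.8 CPM at 12 weeks, 71.9 CPM at 8 weeks and 71.7 CPM in the control, with ratios of 0.974 (0.889 to 1.07) and 1 (0.917 to 1.1).

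The 250 bases before the Nr1i3 start (chr1:171213720-171213969, plus strand, GRCm38.p6, RefSeq) are shown because, of receptors over 10 CPM in the control, this one had the lowest 12-week ratio, with its E-box CACGTG in capitals.
Nr1i3: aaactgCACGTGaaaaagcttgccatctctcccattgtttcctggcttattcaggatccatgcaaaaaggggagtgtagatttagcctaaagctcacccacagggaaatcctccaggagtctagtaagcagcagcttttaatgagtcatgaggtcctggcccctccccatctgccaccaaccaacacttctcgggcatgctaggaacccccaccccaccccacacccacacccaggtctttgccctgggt

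Among CAR and PXR targets more genes were called higher than lower. Of 25 above the filter, 9 were called higher and 1 lower at 12 weeks and 13 higher and 1 lower at 8 weeks, with medians of 0.34 and 1.07. Among all genes 3.11% were called higher and 1.34% lower at 12 weeks, and 4.15% and 2.1% at 8 weeks. The target list was chosen with earlier results of these data known, so this comparison is no test. The lower gene was Gadd45b at both times (-1.07 and -1.89). Cyp2b10, the standard marker of CAR activity in mouse liver, had 6.80 CPM (90 counts) at 12 weeks, 4.05 CPM (58 counts) at 8 weeks and 1.40 CPM (19 counts) in the control, 4.85 times the control at 12 weeks (2.93 to 8.43) and 2.89 times at 8 weeks (1.70 to 5.14). Cyp2b9 had 127 CPM at 12 weeks, 255 CPM at 8 weeks and 1.03 CPM in the control. Cyp3a11, the main PXR target and the most abundant gene of the list, had log2 ratios of -0.26 and 0.38 and was not called. The transporter Abcb1a (2.28 and 2.23) and the glutathione transferase Gstm3 (1.66 and 2.30) were called at both times. Cyp2b9 is also a female-biased gene of mouse liver, and the Cyp2b, Cyp2c and Gstm genes have near-identical copies, so that values of single members are uncertain.

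LXR alpha, Nr1h3, which raises sterol export and lipogenesis, had 38.7 CPM at 12 weeks, 42.9 CPM at 8 weeks and 42.2 CPM in the control, and both intervals held 1. It is also made by Kupffer cells, whose summed markers had 390 CPM at 12 weeks, 506 CPM at 8 weeks and 122 CPM in the control, and their part in its level was not tested. LXR beta, Nr1h2, had 31.9 CPM at 12 weeks, 30.3 CPM at 8 weeks and 35.2 CPM in the control. Of 15 LXR targets above the filter, which include Nr1h3, 5 were called higher and 1 lower (-1.16) at 12 weeks. At 8 weeks 6 were called higher and 0 lower. All genes had shares of 3.11% higher and 1.34% lower at 12 weeks, and 4.15% and 2.1% at 8 weeks. The list was chosen with earlier results of these data known, so these shares are no test. Scd1 (3.75 and 4.19), Cd5l (1.74 and 2.41), Pltp (1.29 and 1.93) and Lpl (1.17 and 1.17) were among the targets called higher. Cd5l is on the macrophage list as well, and 19.3% of the exon bases of Pltp overlap another entry. The sterol exporter Abca1 had log2 ratios of 0.69 and 0.10, and Abcg5, which secretes sterols into bile, had 0.20 and 0.25. Ppard, a fatty acid sensor, was level, with 13.9 CPM at 12 weeks, 13.7 CPM at 8 weeks and 14.2 CPM in the control. Of 15 PPAR-delta targets, most of them shared with PPAR-alpha, 1 was called higher and 2 lower at 12 weeks and 1 higher and 4 lower at 8 weeks (medians -0.47 and -0.45). The fatty acid transporter Cd36 (2.41 and 2.65) was the higher one, and Acot1 (-1.45 and -2.62) and Fgf21 (-1.11 and -2.23) were lower at both times.

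Hnf4a (chromosome 2, 163506808 to 163572910, plus strand) was the receptor with the most reads. It had 15092 counts at 12 weeks, 12186 at 8 weeks and 11066 in the control. The 12-week library was the high one, with a ratio of 1.4 to the control (1.36 to 1.43) and of 1.34 to the 8-week library (1.31 to 1.37), while the 8-week ratio to the control was 1.04 (1.02 to 1.07). The counts do not separate transcripts from the gene's alternative promoters. Of 25 HNF4-alpha targets, 1 was called higher and 2 lower at 12 weeks and 1 higher and 1 lower at 8 weeks, with medians of -0.16 and -0.03. Pyruvate kinase Pklr (1.5 and 2.13; 22% of its exon bases overlap another entry) was higher at both times and the bile acid hydroxylase Cyp8b1 (-2.04 and -1.12) lower at both, whereas Cyp7a1 was called lower at 12 weeks (-1.47) and had 0.60 at 8 weeks. Hnf4g, the intestinal form, had 0 counts at 12 weeks, 0 at 8 weeks and 2 in the control.

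Nr5a2 (liver receptor homolog 1, LRH-1), which activates bile acid synthesis genes, was level, with 94.4 CPM at 12 weeks, 96.7 CPM at 8 weeks and 95 CPM in the control and ratios of 0.994 (0.918 to 1.07) and 1.02 (0.943 to 1.1). Of its 13 listed targets above the filter, which include Hnf4a, 0 were called higher and 3 lower at 12 weeks and 0 higher and 1 lower at 8 weeks. The medians were 0.20 and 0.12, with 9 and 10 of the 13 genes above 0. The lower genes at 12 weeks included the corepressor Nr0b2 (10.9 CPM at 12 weeks, 13.1 CPM at 8 weeks, 23.8 CPM in the control), beside Cyp7a1 and Cyp8b1, which are on both lists.

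Rora, which activates clock genes through elements that REV-ERB receptors repress, had 139 CPM at 12 weeks, 127 CPM at 8 weeks and 137 CPM in the control. The ratios were 1.02 (0.956 to 1.09) and 0.932 (0.873 to 0.994). Of 12 genes driven through those elements and above the filter, 4 were called lower at 12 weeks and 9 at 8 weeks. At either time 0 were called higher, and the medians were -0.81 and -1.27. Among all genes 1.34% were called lower at 12 weeks and 2.1% at 8 weeks. The gene list was chosen with earlier results of these data known, so this comparison is no test. Arntl, the positive arm of the clock, had 5.29 CPM (70 counts) at 12 weeks, 1.40 CPM (20 counts) at 8 weeks and 18.1 CPM (245 counts) in the control. Elovl3 (-4.31 and -4.93), a male-biased fatty acid elongase, was lower still. Among the opposing receptors, Nr1d1 had log2 ratios of -0.26 and -0.80, and Nr1d2 0.37 and 0.58. Of 20 clock genes, 3 were called higher and 1 lower at 12 weeks, and 8 higher and 4 lower at 8 weeks. The hour of collection is not given for any library, and its part in these values was not tested.

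Orphan receptors of the NR2 and NR6 families had ratios below 1 in 6 of 6 genes at 8 weeks and in 3 of 6 at 12 weeks. At 8 weeks 3 intervals (Nr2c1, Nr2f2 and Nr2f6) lay below 1, as did those of 24.2% of all genes. At either time 0 of the 6 were called. Nr2f2 (COUP-TFII), found in venous endothelium, stellate cells and hepatocytes, had 85.6 CPM at 12 weeks, 97.2 CPM at 8 weeks and 112 CPM in the control, a ratio of 0.767 at 12 weeks (0.710 to 0.829). Nr2f6 had 95 CPM at 12 weeks, 109 CPM at 8 weeks and 123 CPM in the control (0.773 at 12 weeks, 0.718 to 0.832), and its partner Ocel1 had 0.743. Both were lowest at 12 weeks, as was Nr6a1, the germ cell nuclear factor (147 counts at 12 weeks, 208 at 8 weeks, 206 in the control). Testicular receptor 2, Nr2c1, was instead lowest at 8 weeks, with 220 counts at 12 weeks, 180 at 8 weeks and 224 in the control (ratio 0.761 at 8 weeks, 0.622 to 0.930). Nr2c2 and the scarce Nr2f1, with 26 to 31 counts per library, had intervals that held 1 at both times.

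Estrogen-related receptors, which drive mitochondrial genes together with the coactivator Ppargc1a, differed in level: Esrra and Esrrg were highest at 8 weeks, and Esrrb was barely detected. Esrrg (chromosome 1, 187608791 to 188214885, plus strand) had 38 counts at 12 weeks, 94 at 8 weeks and 45 in the control. Its ratio was 0.865 at 12 weeks (0.547 to 1.36), 1.98 at 8 weeks (1.37 to 2.89) and 0.437 between 12 and 8 weeks (0.292 to 0.644), with a log2 ratio of -0.97 that was just short of the call. Esrrg is abundant in oxidative muscle, and the 8-week library also held the skeletal muscle markers, whose part in its value was not tested. Esrra had 170 counts at 12 weeks, 236 at 8 weeks and 182 in the control (1.23 at 8 weeks, 1.01 to 1.5), and Esrrb had 0 counts at 12 weeks, 3 at 8 weeks and 3 in the control. Ppargc1a had 30.2 CPM at 12 weeks, 53.5 CPM at 8 weeks and 15.4 CPM in the control. Of 17 targets of these receptors, a list that includes Ppargc1a and Esrra, 1 was called higher at 12 weeks and 2 at 8 weeks, with 0 lower (medians -0.06 and 0.13). Got1, a transaminase, was higher at both times (1.47 and 1.07).

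Coactivators and corepressors are the proteins that receptors recruit, and their counts stand beside 4.46% of all genes called at 12 weeks and 6.25% at 8 weeks. Of 24 coactivators 0 were called at 12 weeks and 1, Ppargc1a, higher at 8 weeks (medians 0.07 and 0.08). Of 17 corepressors above the filter 0 were called at 12 weeks and 1, the ligand-dependent corepressor Lcor, higher at 8 weeks (27.3 CPM at 12 weeks, 40.6 CPM at 8 weeks, 19.1 CPM in the control). Ncor1, the most abundant corepressor of the list, had log2 ratios of 0.09 and -0.13.

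**Figure D3:**
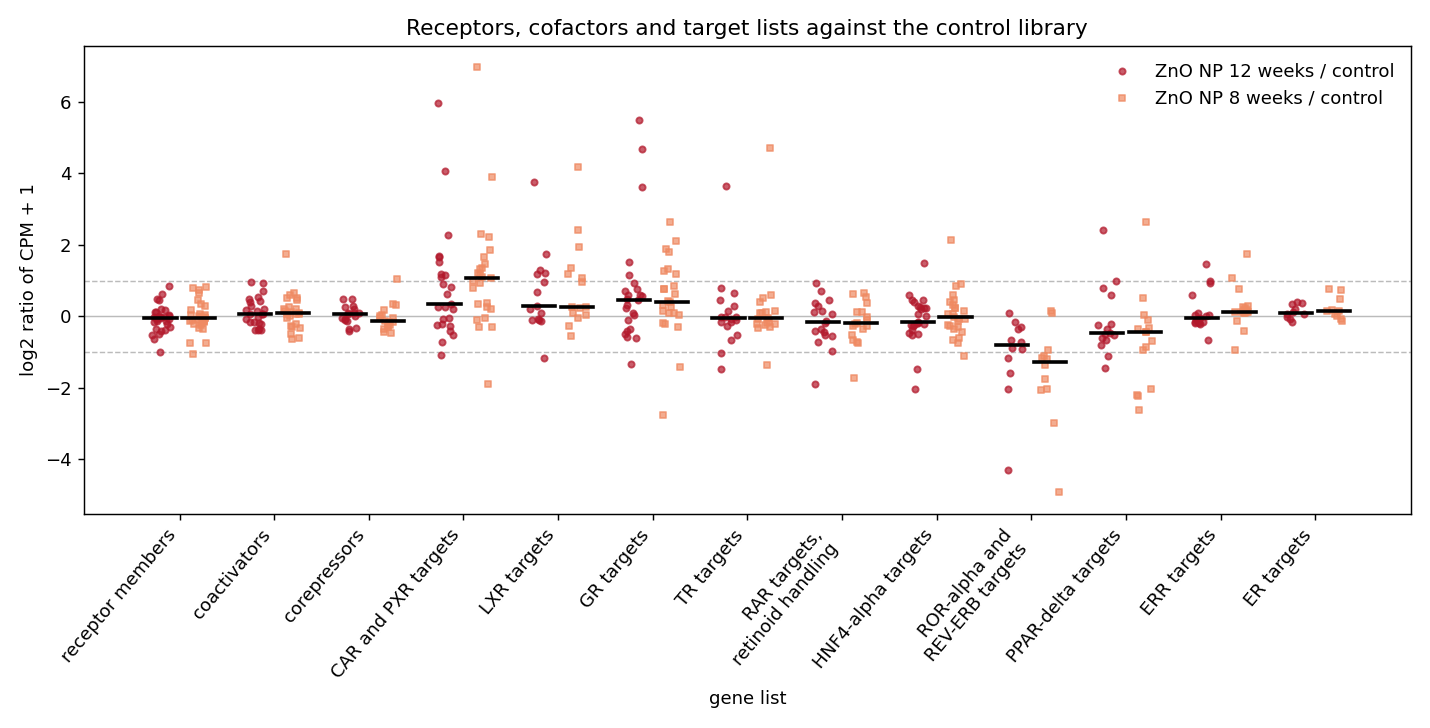
Log2 ratios of CPM + 1 against the control for the receptors, their cofactors and lists of their target genes, at 12 weeks (circles) and 8 weeks (squares); each point is a gene above the filter, black bars are medians and dashed lines mark 2-fold. The medians of receptors and cofactors lie close to 0, with Nr4a1 beyond 2-fold at both times and Ppargc1a and Lcor at 8 weeks. CAR and PXR targets have medians of 0.34 and 1.07 and ROR-alpha and REV-ERB targets of -0.81 and -1.27.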

How the data were processed

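Liver RNA of 3 libraries was sequenced by the authors on an Illumina platform after Trizol extraction and TruSeq preparation, per the labels. Estimated counts for each gene, some of them fractional, are what the authors deposited. TopHat2 2.1.0 and Cufflinks 2.2.1.0 are named, beside mm9 as well as mm10, in the submitters' processing notes, which do not say what each was used for. How reads were counted, and whether strand was used, is not given in the sources used here. Gene positions and exon overlaps are those of the deposited tables, on GRCm38. In the GENCODE M21 annotation 28 of the 34 receptors had the same start, end and strand. Nr3c1, Rxrb, Rarb, Thrb, Ppard and Nr4a1 did not.

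From these files the counts were rounded to whole numbers and scaled by TMM in edgeR 4.0.16 (R 4.3.3), which moved libraries by factors of 0.997 to 1.005. Genes with at least 1 CPM in 1 library were kept, ratios were taken on log2(CPM + 1), and a gene was called at 2-fold; no test was run. A pseudocount understates ratios of low genes. Intervals of count ratios are exact binomial (Clopper-Pearson, 95%). DESeq2 1.42.0 size factors, pseudocounts, filters and thresholds were tried as alternatives. The calculation was tested on simulated data.

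The receptors and gene lists were chosen with earlier results of these data known. By rule, receptors past 2-fold, or with a whole interval past 1.5-fold, are given in full; of other lists up to 4 called genes, or otherwise the 2 most abundant, are named. Further textbook targets, such as Fkbp5, Cyp26a1, Cyp3a11, Abca1, Jun and Fos, were named after their values were seen. Protein sequences were not analysed here.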

Additional observations from a re-analysis of the deposited data

Results flagged for a closer look

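Thrb, the main thyroid hormone receptor of hepatocytes, stood on different sides of the control in the treated libraries. Its count ratio to the control was 1.12 at 12 weeks and 0.839 at 8 weeks, and each counting interval lay off 1. The difference between the times was not tested, since each group is 1 library and both ratios share the control.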

How the results depend on the processing

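With a pseudocount of 0.5 CPM, 2 receptors were called at 12 weeks and 2 at 8 weeks against the control (Nr4a3 beside Nr4a1), and 1 between 12 and 8 weeks (Esrrg). With 5 CPM the counts were 0 at 12 weeks and 0 at 8 weeks. At a threshold of 1.5-fold they were 4 at 12 weeks (Nr1i3, Nr4a1, Nr4a3 and Rarg), 7 at 8 weeks (Esr1, Esrrg, Nr4a1, Nr4a3, Rarb, Rxrg and Thra) and 1 between 12 and 8 weeks (Esrrg). When the whole counting interval had to lie past 2-fold they were 0 at 12 weeks and 0 at 8 weeks. Of 14585 genes in all, 924 were called with 0.5 CPM at 12 weeks, 1238 at 8 weeks and 563 between them. With 5 CPM, 259 genes were called at 12 weeks, 429 at 8 weeks and 161 between them. At 1.5-fold, 2261, 2709 and 1479 genes were called in that order. With the whole interval past 2-fold, 426 genes were called at 12 weeks, and 466 higher and 223 lower at 8 weeks. Scaling by library totals or DESeq2 size factors, other filters, and leaving out receptors with exon overlaps (chosen after seeing the data) left the receptor counts at 1, 1 and 0; under both scalings only Nr3c1 at 12 weeks changed sign. No paired analysis was possible because each group has 1 library. Depth limits Nr4a2, Nr4a3, Rxrg, Nr2f1 and the receptors under the filter most, each with fewer than 50 counts per library.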
